A study of Homo sapiens with 6 samples.

Results

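The 10 genes described here are regulators and markers of the epithelial-mesenchymal transition (EMT): the repressors SNAI1, SNAI2, ZEB1, ZEB2, TWIST1 and TWIST2, the mesenchymal filament gene VIM, and the epithelial regulators GRHL2, ESRP1 and OVOL1. They were taken by name, through their Ensembl identifiers, from a table of 58825 genes measured by RNA-seq. At least 1 count was recorded for 9 of the 10, and 8 passed the filter on low counts and were tested among 16208 genes. The libraries came from SKOV3, an established human ovarian cancer cell line, 48 h after transfection with a negative control siRNA (NC, n = 3) or with an siRNA against the translation factor gene EIF5A2 (si-EIF5A2, n = 3). All 6 libraries therefore shared the cell line and the exposure to a transfected siRNA, and 1 siRNA label covered the whole knockdown group. The labels did not say whether replicates were separate cultures, so the p-values measure only the spread between these libraries, which may be technical.

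In EMT, epithelial cells give up their junctions and polarity and take up mesenchymal features such as vimentin filaments and a fibronectin-rich matrix. SNAI and ZEB proteins are zinc finger repressors that bind E-box motifs in the promoters of epithelial genes such as CDH1, which encodes E-cadherin, while TWIST proteins are basic helix-loop-helix factors. GRHL2, OVOL1 and the splicing factor ESRP1 maintain the epithelial state, and the miR-200 family of microRNAs represses ZEB1 and ZEB2, which in turn repress the miR-200 genes.

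The miR-200 family shows why ZEB1 and ZEB2 are treated as a pair, and its 5 mature sequences fall into 2 seed groups. In GRCh38.p14 those of miR-200b, miR-200a and miR-429 lie between bases 1167160 and 1169076 of chromosome 1 and those of miR-200c and miR-141 between bases 6963742 and 6964176 of chromosome 12, all on the plus strand. They are given 5′ to 3′ from RefSeq, with the seed, bases 2 to 8, in capitals.
hsa-miR-200b-3p: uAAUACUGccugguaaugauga
hsa-miR-200c-3p: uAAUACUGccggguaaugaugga
hsa-miR-429: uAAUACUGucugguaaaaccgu
hsa-miR-200a-3p: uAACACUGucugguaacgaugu
hsa-miR-141-3p: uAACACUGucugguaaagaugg
The complement of the first seed, CAGTATT, occurred 6 times in the 2549-base 3′ UTR of ZEB1 (transcript ZEB1-202 of GENCODE release 29, GRCh38) and 5 times in the 5370-base 3′ UTR of ZEB2 (ZEB2-245). The complement of the second seed, CAGTGTT, occurred 3 times in ZEB1 and 4 times in ZEB2. Across 19145 genes, 16.0% held at least 1 match to the first seed and 18.3% at least 1 to the second in their longest 3′ UTR of a coding transcript, which had a median length of 1103 bases. A pair of sites of each gene, named by the base of the 3′ UTR at which the match starts, with the match in capitals and some bases on each side, shows that the matches recur in different surroundings.
ZEB1, base 369: tttatcttatCAGTATTatcactct
ZEB1, base 1533: tttgatttaaCAGTGTTatgttaac
ZEB2, base 455: tacaatgcatCAGTATTatgattcc
ZEB2, base 734: catccttgtaCAGTGTTaagagggt
Among the other members, SNAI2 held 1 match to the first seed, ESRP1 held 1 to each, and GRHL2 held 1 to the second. SNAI1, TWIST1, TWIST2, VIM and OVOL1 held none in the UTR searched. These matches are a description of the sequence and not measured sites.

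The table held estimated counts, and its low values lay near multiples of 3.69, so a single sequenced fragment was worth several counts. Totals ranged from 46900204 to 74142267 counts per library. EIF5A2 itself was 27.8, 29.8 and 29.9 CPM (counts relative to the total of the library, after TMM scaling) in the NC libraries and 2.76, 4.04 and 4.27 CPM in the si-EIF5A2 libraries, which gave a log2 fold change of -2.98 (SE 0.18). The quasi-likelihood test of edgeR gave it an adjusted p of 1.6e-05 (Benjamini-Hochberg over all genes tested). Calls required an adjusted p under 0.05 together with a fold change over 1.5, which 24.6% of all genes tested met (11.1% higher and 13.6% lower in si-EIF5A2). The listed markers of the cell line were PAX8, ERBB2, EPCAM and WT1, of which WT1 is not reported here. PAX8 had a mean of 106 ± 13.8 CPM in the controls and 61.0 ± 4.73 CPM after knockdown (SD, n = 3). This lower value of PAX8 was a call. ERBB2 was level, with 45.9 ± 2.30 CPM in the controls and 45.4 ± 2.98 CPM after knockdown of EIF5A2. EPCAM, from the same marker list, was low, with means of 1.55 ± 0.0962 CPM for the controls and 1.37 ± 0.279 CPM for the knockdown. The leukocyte markers PTPRC and CD3E had 0 counts in every library. These markers are not a full check of the identity of the cells.

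Of the 8 members tested, ZEB2 rose and TWIST1 and TWIST2 fell, while SNAI1, SNAI2, ZEB1, VIM and ESRP1 did not pass the test. The 3 calls are 37.5% of the members tested, beside 24.6% of all genes tested. With 1 library left out, 11.1% to 25% of the members tested were called, beside 21.8% to 23.3% of all genes tested, so the share of the members did not stay above the background; it was 1 gene without NC replicate 2, NC replicate 3 or si-EIF5A2 replicate 3. The median log2 fold change was -0.21 over the 8 members and -0.01 over all genes tested. That of the members turned to 0.09 when NC replicate 1 was left out and stayed negative when any other library was. It was lowest, at -0.56, without si-EIF5A2 replicate 3, a fit in which 9 members were tested. With counts divided by the step of 3.69, SNAI1 and ESRP1 did not pass the filter, and the median over the 6 members tested was 0.05. In 6 of the 8 the 3 NC and the 3 si-EIF5A2 values did not overlap, which was also so for 51.2% of all genes tested. None of the 8 reached the stricter fold of 2 that the methods set with an unadjusted p under 0.05, which 14.6% of all genes tested did. In bulk RNA a lower value can come from fewer cells that express a gene or from less RNA per cell, and these cannot be told apart.

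**Figure D1:**
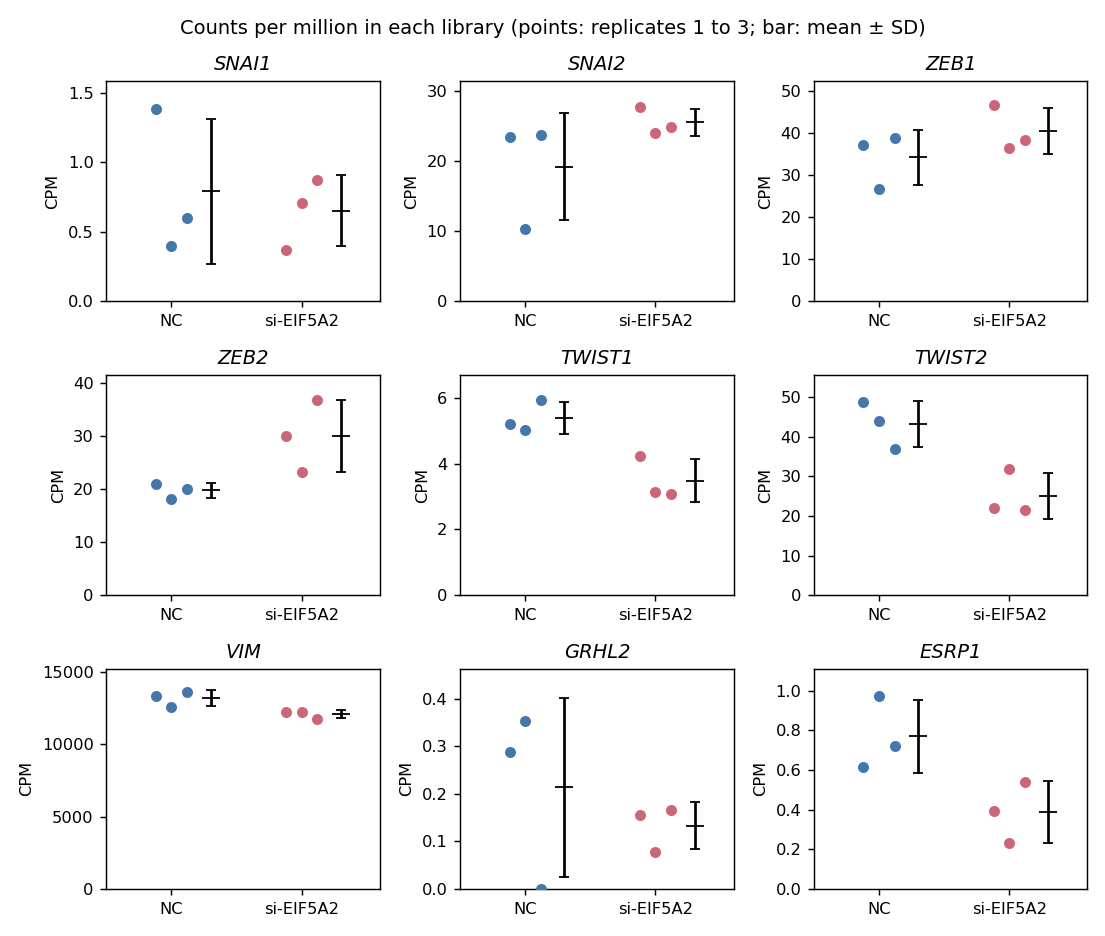
CPM of the 9 members with at least 1 count in each library, on linear axes that start at 0; points are replicates 1 to 3 from left to right and black bars are the mean ± SD (n = 3). The NC and si-EIF5A2 points are separate for ZEB2, TWIST1 and TWIST2, and also for SNAI2, VIM and ESRP1, which did not pass the test.

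SNAI1 (chr20:49982999-49988886, plus strand, GRCh38) encodes Snail, a zinc finger repressor of CDH1. Its counts were 101, 28 and 28 in NC and 19, 37 and 42 after knockdown. NC replicate 1 stood above the other 5 libraries, and the groups overlapped. The mean was 0.792 ± 0.523 CPM in NC against 0.652 ± 0.257 CPM in si-EIF5A2 (SD, n = 3). The log2 fold change was -0.28 with a 95% confidence interval of -1.65 to 1.08 (edgeR adjusted p = 0.75), and it turned to 0.40 without NC replicate 1. The interval holds changes past 2-fold in both directions, so a change of that size could not be told from none in these libraries.

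SNAI2 (chr8:48917604-48921740, minus strand) encodes Slug, a second repressor of the Snail family. Its values were 23.5, 10.4 and 23.8 CPM in NC and 27.8, 24.0 and 24.9 CPM after knockdown. All si-EIF5A2 values were above all NC values, but by little, except over NC replicate 2. The log2 fold change was 0.41 (SE 0.31, edgeR adjusted p = 0.363) and it was 0.11 without NC replicate 2.

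ZEB1 (chr10:31318495-31529814, plus strand) encodes a repressor with a zinc finger cluster at each end. It measured 37.2, 26.7 and 38.9 CPM in NC and 46.6, 36.5 and 38.3 CPM after knockdown, so the groups overlapped and NC replicate 2 was again the lowest library. The log2 fold change was 0.24 (95% confidence interval -0.14 to 0.62, edgeR adjusted p = 0.296), and 0.090 without NC replicate 2.

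ZEB2 (chr2:144364364-144524583, minus strand), the paralog of ZEB1, was the one repressor of the 6 that rose. Its values were 21.0, 18.2 and 20.1 CPM in the NC libraries and 30.1, 23.2 and 36.8 CPM in the si-EIF5A2 libraries. Every si-EIF5A2 library was above every NC library, and the spread was wider after knockdown, with si-EIF5A2 replicate 2 nearest to the controls. The mean went from 19.8 ± 1.46 to 30.0 ± 6.77 CPM (SD, n = 3), a log2 fold change of 0.60 (SE 0.17, edgeR adjusted p = 0.0227) and a fold of 1.52, just past the limit of 1.5. The call was lost without NC replicate 2 (0.55), NC replicate 3 (0.61), si-EIF5A2 replicate 1 (0.60) or si-EIF5A2 replicate 3 (0.43), and with no filter on low counts (0.57), with the same direction each time.

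The ZEB2 to ZEB1 ratio put the paralogs side by side within each library. On the log2 scale it was -0.82, -0.56 and -0.95 in NC and -0.63, -0.65 and -0.06 in si-EIF5A2. The groups overlapped, and the difference of 0.33 had an exact 2-sided permutation p of 0.3 (adjusted p = 0.75 over 6 ratios), in a design of 3 against 3 that allows no p under 0.1. The rise of ZEB2 was therefore not shown to differ from the value of ZEB1.

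TWIST1 (chr7:19020991-19117672, minus strand) encodes a basic helix-loop-helix factor of mesoderm and neural crest development. It was 5.21, 5.03 and 5.93 CPM in NC and 4.22, 3.12 and 3.09 CPM after knockdown. All knockdown libraries were below all controls. The mean fell from 5.39 ± 0.481 to 3.48 ± 0.647 CPM (SD, n = 3), with a log2 fold change of -0.63 (SE 0.19, edgeR adjusted p = 0.0341). The call was lost without NC replicate 1 (-0.66), NC replicate 2 (-0.68), NC replicate 3 (-0.56), si-EIF5A2 replicate 2 (-0.56) or si-EIF5A2 replicate 3 (-0.56).

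TWIST2 (chr2:238848032-238910543, plus strand), its paralog, was 48.7, 44.1 and 37.1 CPM in NC and 22.0, 31.8 and 21.6 CPM after knockdown. The lowest control was above the highest knockdown library. The mean fell from 43.3 ± 5.86 to 25.1 ± 5.80 CPM (SD, n = 3), to 58.1% of NC, with a log2 fold change of -0.78 (95% confidence interval -1.20 to -0.37, edgeR adjusted p = 0.0103). Leaving out any 1 library kept the call, with log2 fold changes from -0.99 to -0.69.

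The log2 ratio of TWIST2 to TWIST1 averaged 2.99 ± 0.31 in NC and 2.83 ± 0.48 in si-EIF5A2 (SD, n = 3), and its difference of -0.16 had an exact permutation p of 0.7 and took either sign, at -0.41 when si-EIF5A2 replicate 2 was left out and 0.07 when si-EIF5A2 replicate 1 was. The log2 ratio of SNAI2 to SNAI1 averaged 4.63 ± 0.60 and 5.30 ± 0.70, with an exact permutation p of 0.4. No ratio of paralogs was thus separable between the groups beyond the spread of the libraries.

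**Figure D2:**
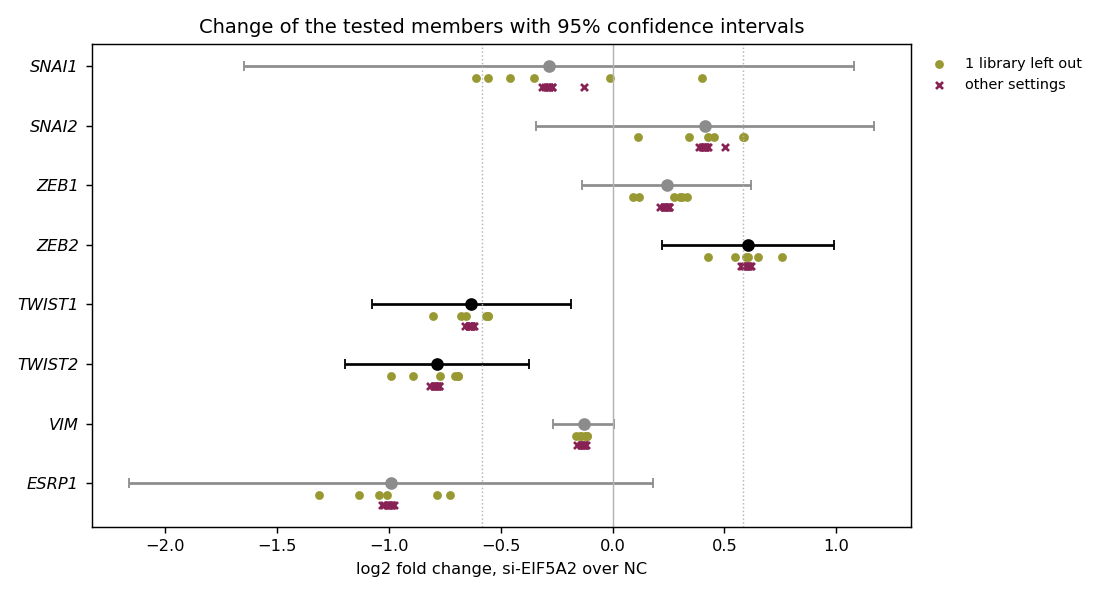
Log2 fold change of si-EIF5A2 over NC for the 8 members tested, with 95% confidence intervals from edgeR (black: called; gray: not called), the values with 1 library left out and the values under other settings; dotted lines mark a fold of 1.5. The TWIST2 points stay left of the dotted line at every setting, the ZEB2 and TWIST1 points cross it, and SNAI1 crosses 0.

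VIM (chr10:17228259-17237593, plus strand) encodes vimentin, the intermediate filament protein of mesenchymal cells. Its counts were 975578, 892900 and 641436 in NC and 625938, 637969 and 563144 after knockdown, on average 1.27% of a library. Scaled to library size, the mean was 13205 ± 538 CPM in NC against 12069 ± 284 CPM in si-EIF5A2 (SD, n = 3), and the groups did not overlap. The log2 fold change was -0.13 (95% confidence interval -0.27 to 0.0069, edgeR adjusted p = 0.128), so the interval held no change as large as the 1.5-fold limit. VIM ranked 15 of the 16208 genes tested by level per length. The antisense gene VIM-AS1, which shares 641 exon bases with VIM on the other strand, had 2674, 483 and 295 counts in NC and 1031, 113 and 123 counts in si-EIF5A2, and AL133415.1, which shares 619, had 1758 to 3494 counts, both small numbers beside the counts of VIM.

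The epithelial regulators were close to or at the limit of detection in both groups. ESRP1 (chr8:94641074-94707466, plus strand), a splicing factor that keeps epithelial isoforms in use, had 45, 69 and 34 counts in NC and 20, 12 and 26 counts in si-EIF5A2. The groups did not overlap, at 0.771 ± 0.184 and 0.388 ± 0.156 CPM (SD, n = 3), but the log2 fold change of -0.99 did not pass the test (95% confidence interval -2.16 to 0.18, edgeR adjusted p = 0.17).

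GRHL2 (chr8:101492432-101669726, plus strand), a grainyhead factor that sustains CDH1 expression, had 21, 25 and 0 counts in NC and 8, 4 and 8 counts in si-EIF5A2. All 3 si-EIF5A2 values were under 3 fragments, which is 11.07 counts, and GRHL2 did not pass the filter. Without the filter its log2 fold change was -0.73 (edgeR adjusted p = 0.754). OVOL1 (chr11:65787022-65797219, plus strand), a zinc finger repressor of ZEB1, had 0 counts in all 6 libraries, so that up to 0.149 to 0.236 CPM, depending on the library, would have gone unseen, a limit that covers only counting error.

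Between genes, levels were compared as CPM per kilobase of annotated exon. VIM was highest at 2450 and was followed by TWIST2 at 18.2, SNAI2 at 6.60, ZEB1 at 4.32, TWIST1 at 2.18, ZEB2 at 0.993, SNAI1 at 0.428, ESRP1 at 0.119, GRHL2 at 0.0286 and OVOL1 at 0 CPM per kilobase, as means over all 6 libraries. The ranges of SNAI2 and ZEB1 overlapped, as did those of ZEB2 and SNAI1, of ESRP1 and GRHL2, and of GRHL2 and OVOL1, so these neighbours were not ordered beyond their spread. The other neighbours in the order did not overlap over the 6 libraries. The most abundant repressor per length was thus TWIST2, the member whose fall held in every leave-one-out fit.

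The place of ZEB2 depended on the length used. Its annotated exons cover 25058 bases together, while the coding transcript ZEB2-245 is 9339 bases long. With the length of that transcript, ZEB2 was at 2.66 CPM per kilobase, level with TWIST1 at 2.66 by the same measure (TWIST1-201, 1666 bases). The order of the other members was the same with transcript lengths. VIM was then at 6765 and TWIST2 at 24.4 CPM per kilobase, so the distance between these also depended on the length used.

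**Figure D3:**
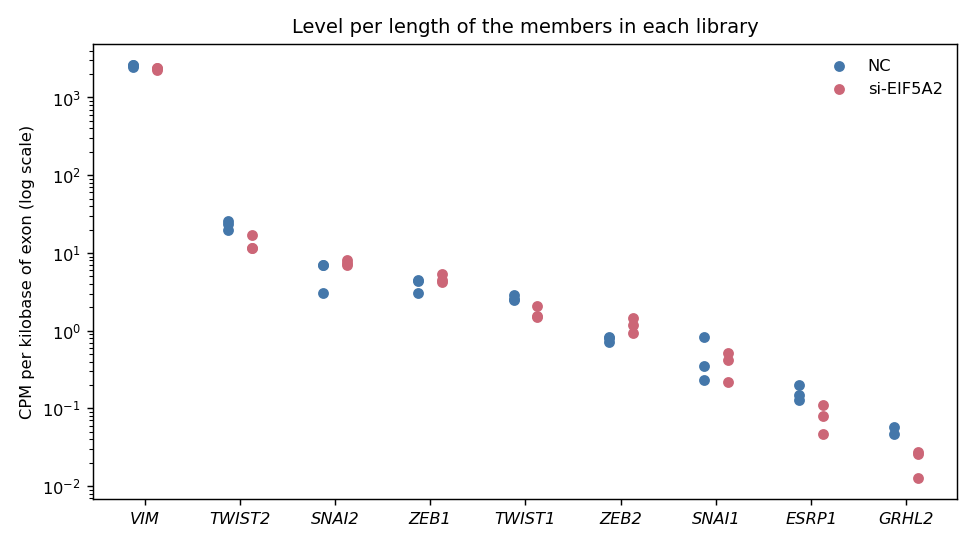
CPM per kilobase of annotated exon for each library on a log axis, for the 9 members with at least 1 count (NC blue, si-EIF5A2 red); the NC library with 0 counts for GRHL2 is not drawn. The mean of VIM lies 134 times above that of TWIST2, and ESRP1 and GRHL2 lie below 0.2 CPM per kilobase.

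For each called member, the genes most alike over the 6 libraries were found by Pearson's r of log2 CPM, given here as a description over libraries that share the 2 groups. ZEB2 was closest to CDC16 (r = 0.997), USP47 (0.994) and CTDNEP1 (0.991). TWIST1 was closest to PALB2 (0.994), WDR5B-DT (0.994) and SOX30 (0.993), and TWIST2 to FLVCR1-DT (0.997), TRAPPC6A (0.995) and RRP7A (0.995).

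Antisense transcripts and microRNA host genes lie beside several members and were counted separately. ZEB1-AS1, which shares 366 exon bases with ZEB1 on the other strand, fell from 4.17 ± 0.499 to 2.77 ± 0.138 CPM (SD, n = 3; log2 fold change -0.59, edgeR adjusted p = 0.0384). Whether the libraries kept the strand is not given in the sources used here, so reads of ZEB1 and ZEB1-AS1 in the shared exons may not be separable. SNAI3-AS1 rose from 1.31 ± 0.238 to 2.89 ± 0.0225 CPM (log2 fold change 1.14, edgeR adjusted p = 0.00656).

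The host gene of miR-200c and miR-141, MIR200CHG, had 0 counts in every library, as had MIR205HG, ZEB2-AS1 and HOTAIR. VIM-AS1 (log2 fold change -1.0, edgeR adjusted p = 0.59), MIR34AHG (0.33, adjusted p = 0.927) and LINC01139 (0.64, adjusted p = 0.146) did not pass the test. MIR34AHG had 662 counts in NC replicate 2 and 609 in si-EIF5A2 replicate 2 but no more than 21 in any other library. VIM-AS1 was highest in replicate 1 of both groups, a spread that its test on the condition alone did not take out.

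Epithelial junction and polarity genes are the class that SNAI and ZEB factors repress. Of 38 listed genes, 29 were tested, 4 rose and 8 fell, so 41.4% were called beside 24.6% of all genes tested, and the median log2 fold change was -0.50. This median was -0.14 over the genes with at least 10 counts in every library, -0.29 with counts divided by the step, and -0.32 without si-EIF5A2 replicate 2. Without si-EIF5A2 replicate 1 it was -0.70. The periplakin gene PPL fell from 3.57 ± 0.278 to 0.0686 ± 0.0872 CPM (SD, n = 3). Its si-EIF5A2 counts of 2, 0 and 8 were all under 3 fragments (11.07 counts), so the size of this fall is uncertain. The tight junction plaque gene CGN, with 3.72 ± 0.216 CPM in NC, was at 0.675 ± 0.250 CPM in si-EIF5A2 (log2 fold change -2.46).

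Desmosomal genes went both ways, since PKP3 fell by 1.43 on the log2 scale while DSC2 and DSP rose by 0.84 and 0.77. The keratin gene KRT7 went from 382 ± 26.1 to 209 ± 8.75 CPM, a log2 fold change of -0.87 (edgeR adjusted p = 1.0e-04). The adaptor subunit gene AP1M2 rose by 0.81.

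CDH1 itself was scarce in both groups. It had 41, 71 and 20 counts in NC and 23, 9 and 26 counts in si-EIF5A2, the groups overlapped, and its log2 fold change of -0.78 did not pass the test (edgeR adjusted p = 0.369). EPCAM, an epithelial adhesion gene, was at 1.55 ± 0.0962 and 1.37 ± 0.279 CPM (SD, n = 3; edgeR adjusted p = 0.649). MAL2, outside the naming rule and chosen after its values were seen, had 91, 48 and 23 counts in NC and 0 in each si-EIF5A2 library, at least 3.44-fold lower against a floor of 3 fragments in the shallowest of those libraries. The median of the list was the same with MAL2 at that bound.

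The letters CACCTG or CAGGTG, the E-box that SNAI and ZEB proteins bind, are reverse complements of each other, so a search for both covers both strands. RefSeq promoter windows of 300 bases (GRCh38.p14) were found for 20 of the 38 epithelial genes, and 18 of their 27 windows (66.7%) held the motif, beside 20.6% of all 35116 windows. The share was 10.5% of 38 windows of 25 mesenchymal genes. Among members, windows were found for ZEB1, ZEB2, TWIST2 and VIM, and 2 of the 7 ZEB1 windows held the motif while the single windows of the other three held none. The promoter of the polarity gene CRB3 is shown as one of the windows of this list with the most matches, 5, in capitals, on the plus strand at chr19:6464021-6464320.
CRB3: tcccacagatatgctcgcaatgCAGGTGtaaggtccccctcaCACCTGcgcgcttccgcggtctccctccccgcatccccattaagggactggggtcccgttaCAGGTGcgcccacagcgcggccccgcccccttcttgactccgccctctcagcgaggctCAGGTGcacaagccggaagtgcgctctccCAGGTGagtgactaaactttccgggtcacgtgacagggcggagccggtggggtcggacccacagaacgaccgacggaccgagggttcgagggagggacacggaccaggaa
CRB3 had 9 counts in NC replicate 2, 8 in si-EIF5A2 replicate 2 and 0 in the other 4 libraries, and was not tested. A match is not a bound site, and binding was not measured.

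Mesenchymal genes moved in both directions, with more rises than falls. Of 40 listed genes, 32 were tested and 23 were called (71.9%, beside 24.6% of all genes tested), 15 higher and 8 lower, with a median log2 fold change of 0.60. The matrix gene FN1, which encodes fibronectin, was 143, 147 and 132 CPM in NC and 564, 545 and 654 CPM after knockdown. All knockdown libraries were far above all controls, with a log2 fold change of 2.06 (SE 0.094, edgeR adjusted p = 6.5e-06).

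CDH2, the N-cadherin gene, rose from 66.6 ± 5.13 to 121 ± 6.97 CPM (SD, n = 3; log2 fold change 0.86, edgeR adjusted p = 1.96e-04). The type V collagen genes COL5A2 and COL5A1 rose by 1.57 and 1.45 on the log2 scale and the fibrillin gene FBN1 by 1.47. Other mesenchymal genes fell: S100A4, a calcium-binding protein gene, by 1.93, the gelatinase gene MMP2 by 1.25, the receptor kinase gene AXL by 0.95 and the matricellular gene CCN2 by 0.92.

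The log2 ratio of CDH2 to CDH1 averaged 6.66 ± 0.68 in NC and 8.28 ± 0.86 in si-EIF5A2 (SD, n = 3), and its difference of 1.62 had the smallest exact permutation p the design allows, 0.1 (adjusted p = 0.6 over 6 ratios). The log2 ratios of VIM to CDH1 and of ZEB1 to GRHL2 differed by 0.64 and 0.26, with exact permutation p of 0.5 and 0.9. The first was 0.18 without si-EIF5A2 replicate 2, and the second took either sign, at -0.53 when NC replicate 2 was left out and 1.47 when NC replicate 3 was. Summed markers of endothelium (PECAM1 and VWF) ranged from 1.94 to 2.37 CPM in NC and from 0 to 1.0 CPM in si-EIF5A2, and those of stromal fibroblasts (PDGFRB, DCN and LUM) from 0.260 to 0.808 CPM in NC and from 0 to 0.542 CPM in si-EIF5A2. PDGFRB, DCN and LUM also belong to the mesenchymal list, so these fibroblast markers are not separate from it. The part of either marker set in the results of the mesenchymal genes was not tested.

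Other transcription regulators of the epithelial and mesenchymal states were called at about the rate of all genes. Of 34 listed, 23 were tested, 5 rose and 1 fell (26.1% called, beside 24.6%), and the median log2 fold change was -0.08, at -0.21 when si-EIF5A2 replicate 3 was left out and at -0.03 when NC replicate 3 was. TBX3, a T-box repressor of CDH1, rose from 29.7 ± 8.37 to 93.8 ± 5.08 CPM (SD, n = 3; log2 fold change 1.66, edgeR adjusted p = 7.22e-04). TCF3, whose E proteins pair with TWIST factors, rose by 1.17, TBX2 by 1.15 and SOX4 by 0.85 on the log2 scale, and the forkhead gene FOXQ1 fell by 1.24.

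Corepressors and enzymes that set the stability of the SNAI, ZEB and TWIST proteins act after transcription of the members. Of 40 listed, 39 were tested, 6 rose and 7 fell (33.3%, beside 24.6%), with a median of -0.17 that was -0.01 when si-EIF5A2 replicate 3 was left out and -0.08 when si-EIF5A2 replicate 2 was. CTDSP2, a phosphatase of the family that stabilizes Snail, fell from 215 ± 10.5 to 55.5 ± 2.39 CPM (SD, n = 3; log2 fold change -1.96, edgeR adjusted p = 4.92e-06). BTRC, a ubiquitin ligase subunit that marks phosphorylated Snail for degradation, fell by 1.61, the deacetylase gene SIRT1 by 1.22 and the histone methyltransferase gene EZH2 by 1.0. WTIP, of the Ajuba family of Snail corepressors, rose by 1.07, the Hippo kinase gene LATS2 by 0.99, and the ubiquitin ligase genes FBXW7 and SIAH2 by 0.88 and 0.83.

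VIM was also set beside other intermediate filament genes and linkers that are not keratins. Of 15 listed, 9 were tested, 0 rose and 2 fell (22.2%, beside 24.6%), with a median of 0.18 that turned to -0.04 without si-EIF5A2 replicate 3 and was 0.07 without NC replicate 3. Both called genes encode B-type nuclear lamins: LMNB1 fell from 80.8 ± 13.8 to 11.0 ± 0.265 CPM and LMNB2 from 236 ± 6.04 to 126 ± 7.32 CPM (SD, n = 3), log2 fold changes of -2.87 and -0.91.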

How the data were processed

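RNA of SKOV3 cells was measured by paired-end mRNA sequencing in 6 libraries. StringTie and ballgown were used by the authors, whose deposited table gives estimated counts, 1 row per gene, as whole numbers, not normalized and not pooled. The aligner, genome build and strandedness are not given in the sources used here; the submitters' processing notes list Bowtie 0.12.2 and the mouse builds mm8 and mm9, while the table holds human identifiers. Shared fragments between overlapping genes make such estimates less certain. All 6 columns were matched by name, with 0 left over.

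The members and the gene lists were chosen with earlier results of these data known. Positions and 3′ UTRs came from GENCODE release 29 (GRCh38). edgeR 4.0.16 in R 4.3.3 was fitted to the 6 libraries on the condition alone (filterByExpr, TMM, robust quasi-likelihood fits, Benjamini-Hochberg adjustment over 16208 genes). The test had been planned for counts and was kept, as the values were whole numbers already. CPM values use TMM library sizes. Ratios used log2 CPM with a prior count of 2 and exact 2-sided permutation tests. In every list, up to 4 called genes per direction with the largest change and a mean of at least 1 CPM were named, and the members, EIF5A2, CDH1, EPCAM, CDH2 and FN1 whatever their values; CRB3 and MAL2 were added after their values were seen. One gene under this rule is not reported here. Alternatives were DESeq2 1.42.0, RLE, upper-quartile and library-size scaling, other filters, a replicate block, counts divided by their step, other thresholds and leaving out each library. The length of 1 coding transcript was added after the data had been seen. The steps were tested on simulated counts, in which more calls were false than the nominal rate with edgeR, and more again with DESeq2, and part of the changed genes was not recovered.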

Additional observations from a re-analysis of the deposited data

How the results depend on the processing

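Of the 3 members called, 1 remained with the replicate number as a block, 12.5% of the members tested, beside 23% of all genes tested. With a library left out, 1 to 2 remained (1 without NC replicate 2, NC replicate 3 or si-EIF5A2 replicate 3). These were 11.1% to 25% of the members tested, beside 21.8% to 23.3% of all genes tested. At the methods' own threshold (a fold change over 2 with an unadjusted p under 0.05), 0 remained, beside 14.6% of all genes tested. The log2 fold changes of ZEB2, TWIST1 and TWIST2 at that threshold are the same 0.60, -0.63 and -0.78. ZEB2 lost its call with no filter on low counts (0.57) and with the block (0.58), and ranged from 0.43 to 0.76 with a library left out. TWIST1 lost its call with the block (-0.64) and ranged from -0.80 to -0.56 with a library left out. TWIST2 was called under every alternative run except the methods threshold, with log2 fold changes from -0.99 to -0.69. SNAI1 ranged from -0.61 to 0.40 with a library left out and reversed (0.40) without NC replicate 1. Adjusted p over the alternatives ran from 0.00487 to 0.0784 for ZEB2, from 0.0188 to 0.0994 for TWIST1 and from 1.9e-04 to 0.0399 for TWIST2. At the methods threshold, 2370 of all genes tested were called in place of 3992, a share of 14.6%. Beside this, 6 epithelial junction genes (20.7% of those tested) were called in place of 12, and 12 mesenchymal genes (37.5%) in place of 23. Of the corepressor and stability genes, 6 were called in place of 13, and their share of 15.4% was near that of all genes. With no fold limit, 20 corepressor and stability genes (51.3%) and 4 intermediate filament genes (44.4%, in place of 2) were called, beside 36.9% of all genes tested. Over all genes tested, same-numbered libraries did not deviate together (correlations of -0.024, 0.0052 and -0.0027), so the numbers were not taken as pairs. Some genes, such as MIR34AHG and VIM-AS1, were nevertheless high in the same number of both groups. The cause of these losses was not tested. For OVOL1, a library with 0 counts allows up to 0.149 to 0.236 CPM, depending on the library. For GRHL2, NC replicate 3 with its 0 counts allows up to 0.236 CPM.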
